A study of Homo sapiens with 12 samples.

Results

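PML and 7 genes whose products act at PML nuclear bodies are described here: SP100, SP110, SP140, SP140L, DAXX, HIPK2 and RNF4. They were chosen by function from the 19775 genes that the array's non-control probe sets name with exactly 1 gene symbol. Earlier results of these data were known when the choice was made. Every PML probe set is given. For each other gene, values are those of its probe set with the highest mean log2 signal over all arrays. All 8 genes were measured, by 38 probe sets, and all 8 passed the filter on low signal that left 13959 genes to test.

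The promyelocytic leukemia protein PML forms the shell of nuclear bodies, where SUMO-modified PML gathers partners that bind SUMO. The fusion PML-RARA of acute promyelocytic leukemia joins PML to the retinoic acid receptor alpha and is known to scatter these bodies into small speckles. PML and several SP family genes are known targets of interferon, and RNF4, a ubiquitin ligase that recognises SUMO chains, is known for the loss of PML and of the fusion under arsenic.

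U937, a human myeloid line from a histiocytic lymphoma, was electroporated with a plasmid for GFP alone (GFP), for GFP-tagged PML-RARA (PRWT) or for a tagged PML-RARA variant (PR2VR), which the series title lets one take as the protease-resistant form, although its labels describe it too as wild type cDNA. GFP-positive cells were sorted at 6 h or 9 h and total RNA was hybridised to 12 arrays, 2 for each of the 6 groups, so that all groups share the line, the electroporation and the sort. Expression was transient, and the titles of the fusion samples count the hours from an infection where those of the GFP samples count them from transfection. Each array carries an hour and a replicate number, and the 3 arrays that share both (1 per construct) are called a set below; nothing in the labels ties replicates to separate transfections, and p-values therefore reflect the spread among arrays, which may be technical.

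Signals are MAS5 intensities, whose trimmed mean was 1500.2 on every array. Differences are on the scale log2(signal + 62.5) and are understated for dim probe sets. Their standard error (SE) or 95% interval is that of a limma fit without a term for the sets. A change was called at a Benjamini-Hochberg adjusted p under 0.05 over all genes, or over all 54613 probe sets for the PML probe sets. A group of 9 control probe sets for the bacterial and phage transcripts bioB, bioC, bioD and cre ranged from 4.4 to 616, median 37.7. They are used below only as a level to compare dim signals with, and whether they measure background was not tested. The number of arrays limits the precision.

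The labels were checked on RARA, whose sequence the plasmids carry. Its probe set 211605_s_at read 48.2 to 309.2 on the 4 GFP arrays and 9281.2 to 58985 on the 8 fusion arrays, a log2 difference of 7.52 ± 0.47 (SE; limma adjusted p = 8.2e-06). RARA has 5 probe sets. A further one, 216300_x_at, read 181.9 to 671.1 on GFP arrays and 3117.4 to 6792.6 on fusion arrays. In 203749_s_at, 203750_s_at and 1565358_at the fusion and GFP arrays overlapped, with 203749_s_at at 1213.2 to 1761.4 in GFP and 887.5 to 1626.3 in the fusions. Of 14 measured myeloid markers 12 passed the filter, with SPI1 and CD14 below it, while 4 of 6 T cell markers were below it and all 5 measured B cell markers were above it. The summed signal of the B cell markers was 3779.7 to 17843.7 on GFP arrays and 4453.1 to 11611.5 on fusion arrays; that of the myeloid markers was 62095.8 to 150619.7 and 58468.3 to 176825.1. The set of 9 h number 2 stood apart: its GAPDH 3'/5' signal ratio, a measure of RNA length, was 2.21 to 2.75 against 3.82 to 12.9 on the other arrays, and its median signal was 387.8 to 436 against 238.6 to 292.1. The called results of the 8 genes are also given without this set.

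The upstream sequences of the SP family genes are shown first, because SP100, SP110, SP140 and SP140L lie next to each other on chromosome 2 in the order SP110, SP140, SP140L, SP100, and SP100 was the gene called by hour. RefSeq promoter windows (GRCh38.p14, 250 bases before to 50 after each annotated start) were matched by symbol for 5 of the 8 genes, namely the SP family genes and RNF4. The capitals mark the longest stretch, read on either strand, that a window of each of the 4 SP family genes holds with 1 variable position. Each line gives the 110 bases up to the gene's start, 5' to 3' on the gene's own strand.
SP110: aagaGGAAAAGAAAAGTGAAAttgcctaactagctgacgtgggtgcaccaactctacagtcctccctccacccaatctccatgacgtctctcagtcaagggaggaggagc
SP140L: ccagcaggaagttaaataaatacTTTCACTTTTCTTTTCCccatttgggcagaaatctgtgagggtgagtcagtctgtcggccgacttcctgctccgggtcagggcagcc
SP100: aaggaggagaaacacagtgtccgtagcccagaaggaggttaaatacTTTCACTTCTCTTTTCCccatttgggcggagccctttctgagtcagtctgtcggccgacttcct
The SP110 stretch is chr2:230225637-230225746 on the minus strand. The SP140L stretch is chr2:230327083-230327192 and the SP100 stretch is chr2:230416091-230416200, both on the plus strand.

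The marked element, GGAAAAGANAAGTGAAA, is 17 bases long and was derived from these windows, so its presence in them is no finding. SP110 and SP140 are transcribed away from each other from starts with 99 bases between them, and both windows contain the same copy, which spans the SP140 start and ends 90 bases before the SP110 start. In SP140L the element lies 71 to 87 bases before the start, and in SP100 it lies 48 to 64 bases before it. Of 35116 windows in the table, 4 (0.0114%) hold the element on either strand, and these are 1 window of each of the 4 SP family genes; the second windows of SP100 and SP110 do not hold it. The upstream 250 bases of SP140L and SP100 aligned with 74.5% identity, against 42.4% to 50.9% for SP110 or SP140 paired with each other or with these. RNF4, which is not of this family, aligned with the 4 SP family genes at 43.6% to 47.1%. The interferon-stimulated response element was searched on both strands in the strict form GAAANNGAAA only. That form occurs in 3.57% of all windows and in none of the windows of the 5 genes that have one. The marked element itself holds repeats of GAAA at other spacings, which were not searched. The STAT site TTCNNNGAA occurs in 7.66% of all windows and before the second annotated start of SP110. These matches describe letters in a window, were searched after the sequences had been seen, and say nothing about binding.

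PML is described first. Its probe set of highest mean signal, 235508_at, read 4082.1 and 4655.9 in GFP cells at 6 h and 5832.1 and 5111.1 at 9 h. In PRWT cells it read 3110.7 and 5749.7 at 6 h and 6735.7 and 6439.1 at 9 h. In PR2VR cells it read 5926.7 and 5983.2 at 6 h and 7419.7 and 5548.2 at 9 h. The constructs overlapped, with the lowest signal on a PRWT array and the highest on a PR2VR array. The fusions differed from GFP by 0.23 ± 0.24 (log2, SE), with a 95% interval from -0.30 to 0.75, and no change was called.

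A single PML probe set, 210362_x_at, separated the constructs. It read 168 and 518.4 at 6 h and 396.8 and 409.4 at 9 h in GFP cells. In PRWT cells it read 3951.1 and 3368.1 at 6 h and 4207.6 and 5895.6 at 9 h. In PR2VR cells it read 1601.2 and 2867.2 at 6 h and 2053.5 and 9894.8 at 9 h. All 8 fusion arrays were above all 4 GFP arrays, and the lowest fusion array was 1 of the PR2VR arrays at 6 h. Such a separation upward was seen in 1 of the 10 PML probe sets, and in 0.141% of all probe sets.

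The signal of 210362_x_at rose by 3.17 ± 0.39 in the fusions (log2, SE; limma adjusted p = 0.0138), an 8.99-fold difference with a 95% interval from 5.07 to 15.9. This was 1 of 10 PML probe sets called, beside 0.00916% of all probe sets, or 5, of which 2 were RARA probe sets. With the set as a replicate block the adjusted p was 0.000898, beside 0.104% of all probe sets called. Without the set of 9 h number 2 the difference was 2.84 and was no longer called (limma adjusted p = 0.350). Leaving out single arrays ended the call in 7 of 12 cases (GFP 6 h replicate 1, both GFP 9 h arrays, both PRWT 6 h arrays and both PR2VR 6 h arrays), while the difference stayed between 2.81 and 3.50 over the 19 alternatives tried.

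By construct, 210362_x_at rose by 3.39 ± 0.45 in PRWT (log2, SE; limma adjusted p = 0.0346), with 0.00549% of probe sets called; on leaving out arrays this call was kept only without either PR2VR 9 h array. It was also lost with the 40th percentile offset (adjusted p = 0.0811), the filter on probe sets (0.0570), quantile normalization (0.0567), no variance trend (0.358) and without the set of 9 h number 2 (0.349), all in limma. In PR2VR the difference was 2.95 ± 0.45 (adjusted p = 0.104), again with 0.00549% of probe sets called, and with the set as a replicate block it was called (limma adjusted p = 0.00542, beside 0.104% of probe sets). The direct difference between PR2VR and PRWT was -0.44 ± 0.45, with an interval from -1.40 to 0.51, and 0% of probe sets were called in that comparison. At 9 h alone the fusions differed from GFP by 3.37 at this probe set, not called (limma adjusted p = 0.370, 0.00366% of probe sets called), and with the replicate block it was called (limma adjusted p = 0.0293, 0.011% of probe sets). Within sets, PR2VR read below PRWT in 3 of the 4 sets and above it in the set of 9 h number 2. The 2 fusions thus did not differ beyond their spread at this probe set, and the interval includes differences of more than 1 log2 unit toward PRWT.

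The other 9 PML probe sets did not pass the test between fusions and GFP. Their differences ran from -0.48 ± 0.26 for 209640_at to 0.70 ± 0.58 for 211589_at, and 6 of these 9 were above 0. Probe set 211012_s_at, bright in every group, differed by 0.00 ± 0.23. Across the 12 arrays, 210362_x_at correlated with the other 9 PML probe sets at Pearson r between -0.59 and 0.39, a description over arrays that share their sets. A PML probe set whose target lies in the part of PML that the plasmids carry reads the plasmid transcript together with the cell's own; the target positions of these probe sets were not used here, so the 2 sources cannot be told apart in 210362_x_at. Probe set 211589_at was below the filter on low signal and ranged from 46.2 to 929.1, and 211588_s_at ranged from 49.4 to 823.5, so both touched the level of these bacterial and phage controls.

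**Figure D1:**
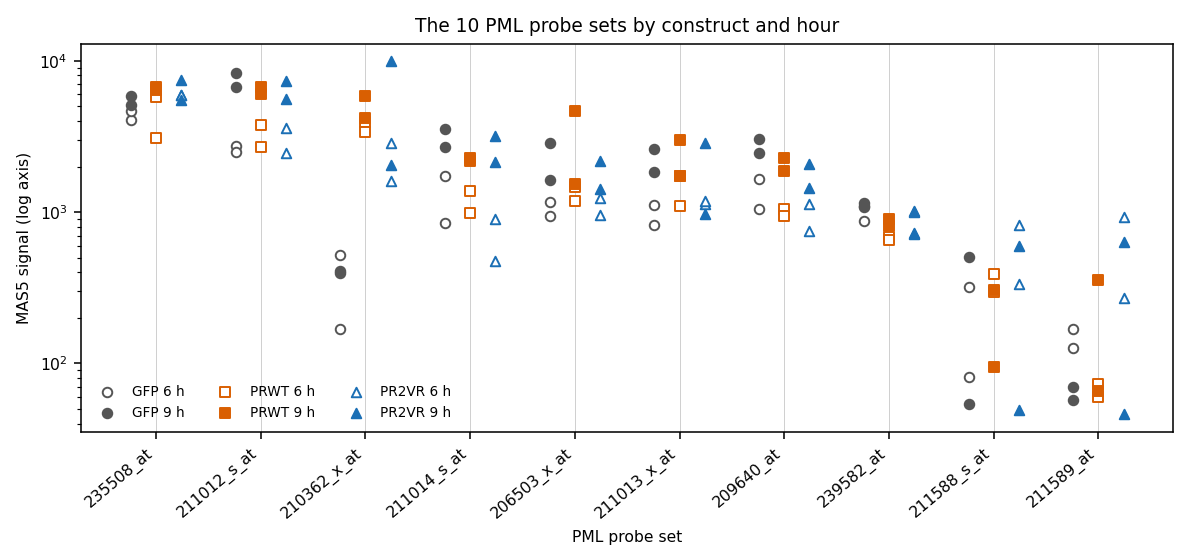
MAS5 signal (log axis) of the 10 PML probe sets, with 1 point per array, GFP in grey circles, PRWT in orange squares, PR2VR in blue triangles, open at 6 h and filled at 9 h. Only in 210362_x_at do all 8 fusion arrays, 1601.2 to 9894.8, lie above all 4 GFP arrays, 168 to 518.4.

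None of the 8 genes passed the test between the fusions and GFP. In limma 0 of 8 were called in both fusions against GFP, beside 0.00716% of the 13959 genes tested, which is 1 gene, RARA; 0 of the 8 and 439 of all genes had an unadjusted p under 0.05. The 8 differences ran from -0.40 for SP140 to 0.23 for PML, with a median of 0.10 against -0.02 over all genes tested. The 95% intervals reached from -1.51 for SP140 to 0.99 for DAXX. With the set as a replicate block 0 of 8 were again called, beside 0.315% of genes.

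The same held for each construct and hour taken alone. In limma 0 of 8 genes were called in PRWT against GFP, in PR2VR against GFP, at 6 h and at 9 h, each beside 0.00716% of genes, and 0 of 8 had an unadjusted p under 0.05 in any of the 4. The difference of the fusion effect between 9 h and 6 h was called in 0 of 8, beside 0% of genes, with 0 of 8 and 106 genes at an unadjusted p under 0.05. In signal, none of the 8 separated the fusion arrays from the GFP arrays in either direction, which 0.48% of genes did. These comparisons share the GFP arrays.

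Among the partners, DAXX, a histone chaperone and corepressor held at the bodies by SUMO-modified PML, read 1559.7, 1001.8, 1180 and 1495.3 on the GFP arrays. It read 1686.4, 545.2, 1571.5 and 1921.8 in PRWT cells and 2937.6, 675.3, 1466.9 and 2121.6 in PR2VR cells, each in the order 6 h number 1 and 2, then 9 h number 1 and 2. The fusion arrays held both the highest and the lowest values. DAXX differed by 0.15 ± 0.39 between fusions and GFP, and its second probe set by 0.42 with no call.

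HIPK2, a kinase of the bodies that phosphorylates p53, read 19994.7, 10282.9, 13576.2 and 8095.2 in GFP cells in the same order of arrays. It read 16389.9, 8358.4, 16776.1 and 9954.5 in PRWT cells, and 15900.6, 18325.5, 13175.2 and 10971.3 in PR2VR cells. The constructs overlapped, and the difference between fusions and GFP was 0.11 ± 0.29. Its 10 probe sets differed by -0.43 to 0.33, 7 of them above 0, and none was called.

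RNF4 read 17064, 13622.9, 18317.1 and 10808.7 in GFP cells, 15518, 15008.4, 18373.6 and 9840.9 in PRWT cells, and 22221.7, 15203.7, 20238.3 and 10020.3 in PR2VR cells, in the same order. The constructs overlapped here too, and the fusions differed from GFP by 0.06 ± 0.28. RNF4 has a single probe set on the array.

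Between the fusions, 0 of 8 genes were called in PR2VR against PRWT, beside 0% of genes; 0 of 8 and 216 genes had an unadjusted p under 0.05 in limma. The 8 differences had a median of 0.20 against -0.01 over all genes, 7 of them above 0. SP140L, a paralogue of SP100 and SP140, differed most. It read 1779.1 and 3986.4 at 6 h and 4303.9 and 3856 at 9 h in PR2VR cells, and 1629.2 and 2902.7 at 6 h and 1354.6 and 2333.9 at 9 h in PRWT cells. PR2VR was above PRWT in all 4 sets, while the 2 groups of arrays overlapped, as those of each of the 8 genes did (1.03% of genes did not overlap). The SP140L difference was 0.73 ± 0.35, with an interval from -0.03 to 1.48 (limma adjusted p = 1.00), and GFP cells read 1299.7 to 3349.9, overlapping both fusions. These values are of 214791_at, and the 3 SP140L probe sets differed by -0.03 to 0.73. At the other probe sets, 223934_at and 1565588_at, PR2VR was above PRWT in the 6 h sets and below it in the 9 h sets.

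**Figure D2:**
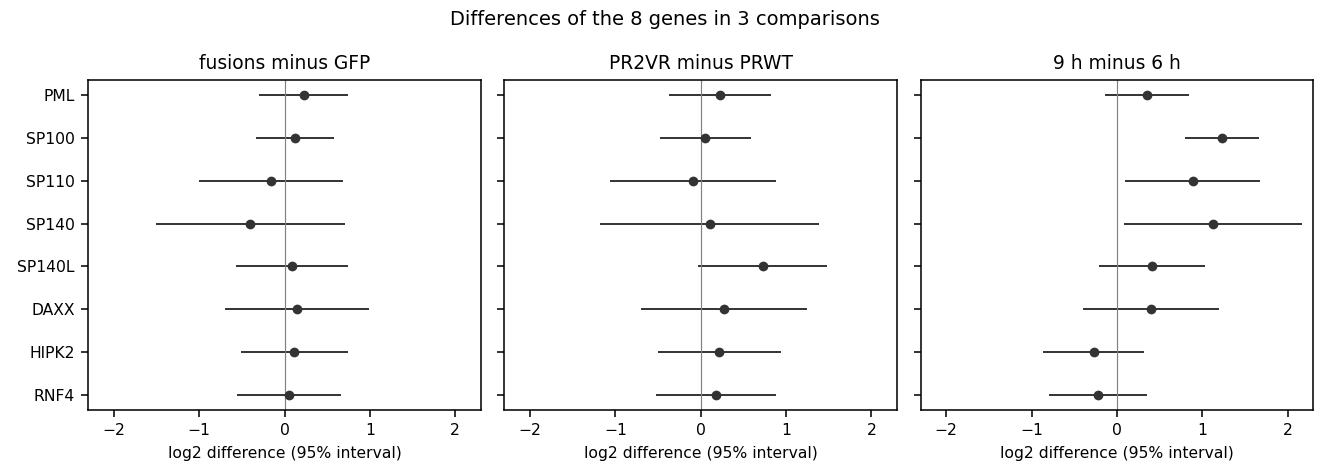
Log2 differences of the 8 genes with 95% intervals of the limma fit without a block, for both fusions minus GFP, PR2VR minus PRWT, and 9 h minus 6 h. Every interval in the first 2 panels includes 0. In the third the intervals of SP100, SP110 and SP140 lie above 0, and SP100, at 1.23, was the gene called.

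By hour, SP100, a body component that binds heterochromatin proteins, was higher at 9 h. In GFP cells it read 4047 and 4288.9 at 6 h against 9197.9 and 10426.1 at 9 h. In PRWT cells it read 3913.8 and 4760.5 against 10152.3 and 11561.6. In PR2VR cells it read 4692.6 and 4824 against 10646.5 and 10545.1. All 6 arrays at 9 h were above all 6 at 6 h, whichever construct they carried, and the gap between hours was wider than the spread within either. Of the 8 genes 1 separated in this way, and 1.25% of all genes did.

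SP100 rose by 1.23 ± 0.20 from 6 h to 9 h (log2, SE; limma adjusted p = 0.0448), a 2.34-fold difference with a 95% interval from 1.73 to 3.16. It was the 1 of 8 genes called, beside 0.0788% of genes, or 11. The rise was 1.22 in GFP, 1.32 in PRWT and 1.14 in PR2VR cells. With the set as a random replicate block SP100 was not called (limma adjusted p = 0.590, 0% of genes called). In that limma fit 2 of the 8 and 766 of all genes had an unadjusted p under 0.05. Without the block 3 of the 8 and 2105 of all genes (15.1%) did. Only 2 sets stand behind each hour, and an exact test over sets could not go below 0.333.

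The SP100 call was also lost without the set of 9 h number 2 (a difference of 1.17, limma adjusted p = 0.907) and on leaving out 11 of the 12 arrays singly; it was kept without PR2VR 6 h replicate 2. Over all probe sets rather than genes its adjusted p was 0.0732. The difference stayed between 0.73 and 1.29 over the 21 alternatives. The lowest was the mean of all 6 SP100 probe sets, which ranged from -0.59 for 237426_at to 2.01 for 210219_at. Of these 6, 5 were higher at 9 h, as were 62.9% of all probe sets, and 210219_at, like 202863_at, separated the hours on every array.

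The other SP family genes were not called by hour. SP110, a nuclear protein of the same family with a SAND domain, differed by 0.89 ± 0.37 (limma adjusted p = 0.301). SP140, a chromatin reader of immune cells, differed by 1.13 ± 0.48 (adjusted p = 0.313) at signals of 22.3 to 688, low enough to overlap the bacterial and phage controls. SP140L differed by 0.41 ± 0.29. The hours overlapped for all 3.

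Of the PML probe sets, 8 of 10 were higher at 9 h, as were 62.9% of all probe sets. None of the 10 was called, beside 0.00366% of all probe sets. An unadjusted p under 0.05 in limma was found for 5 of the 10 and 6785 of all probe sets. Probe set 211012_s_at read 2475.6 to 3746.8 on the 6 h arrays and 5594.8 to 8292.9 on the 9 h arrays, and 211014_s_at read 474.1 to 1730.9 and 2157 to 3530.1. The hours did not overlap in these 2 of the 10, as in 0.857% of all probe sets. Their differences were 1.19 ± 0.22 and 1.36 ± 0.27 (limma adjusted p = 0.113 and 0.123). The PML probe set of highest mean signal, 235508_at, differed by 0.35 ± 0.23 and overlapped.

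DAXX, HIPK2 and RNF4 were not called by hour, at 0.39 ± 0.37, -0.27 ± 0.27 and -0.22 ± 0.27. Their 95% intervals were -0.40 to 1.19, -0.86 to 0.32 and -0.80 to 0.35, so larger differences in either direction are not excluded. The 10 HIPK2 probe sets differed by -0.29 to 1.28, 5 of them above 0, and none was called. The median over the 8 genes was 0.40, against 0.13 over all genes tested. The GAPDH ratio was 8.14 to 12.9 in the set of 9 h number 1 and 2.21 to 2.75 in that of number 2. At 6 h it was 3.82 to 8.28, and the 2 sets overlapped. The actin 3'/5' ratio was 33.6 to 58.2 and 7.79 to 10.7 in these 9 h sets. At 6 h the actin ratio was 12.5 to 56.9, and the sets overlapped too. The part of these ratios in the hour differences was not tested.

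**Figure D3:**
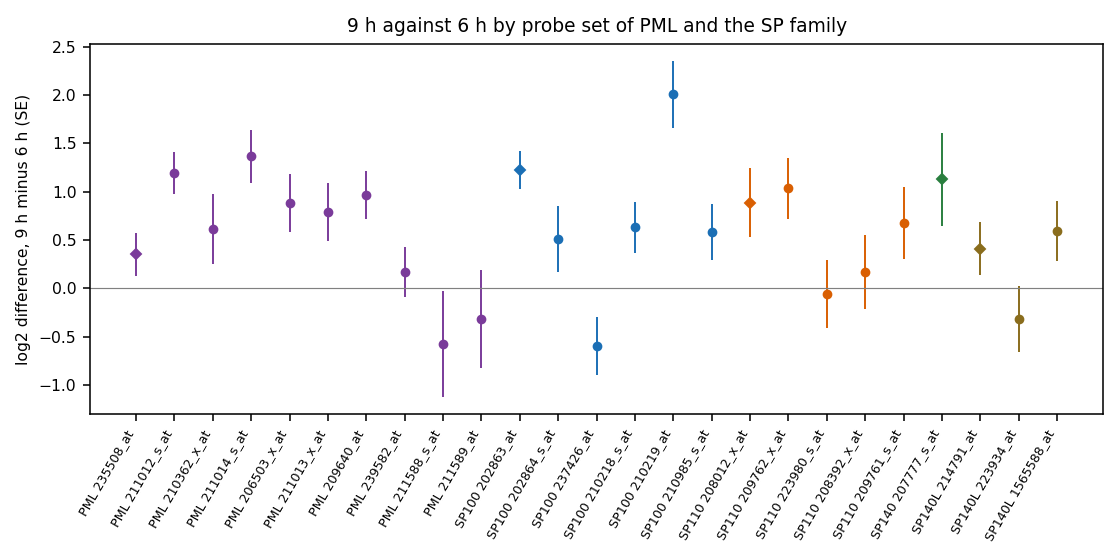
Log2 difference between 9 h and 6 h, with SE, for each probe set of PML and the SP family; diamonds mark the probe set of highest mean signal. SP100 ranges from -0.59 to 2.01 over its 6 probe sets and PML from -0.58 to 1.36 over its 10.

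SP110 differed by set at both hours. At 6 h it read 9748.8, 6676.7 and 5935.7 in set number 1 (GFP, PRWT, PR2VR) and 16108.6, 16230.6 and 16954.1 in set number 2. At 9 h it read 28922.8, 28325.2 and 30749 in set number 1 and 14744.6, 15563.9 and 12051.2 in set number 2. The sets did not overlap at either hour, in opposite order. In set number 1 at 6 h the constructs were spread, with GFP above both fusions. Sets held 94.4% of the variance of SP110 and constructs 1.4%, against medians of 52.7% and 10.2% over all genes tested. All 5 SP110 probe sets were higher in number 2 at 6 h and 4 of the 5 were lower in number 2 at 9 h.

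Separation of the sets was common among all genes. At 6 h, 4 of 8 genes separated set 2 from set 1, where 23.2% of genes did; SP110 and SP140L were higher, and DAXX and RNF4 lower. At 9 h, again 4 of 8 separated, a share near the 44.3% of all genes that did; SP140 was higher and SP110, HIPK2 and RNF4 were lower. RNF4 at 9 h read 18317.1 to 20238.3 in set number 1 and 9840.9 to 10808.7 in set number 2. Sets held 98.1% of the variance of SP100, where hours alone made up 97.0%, and 89.0% of that of RNF4. For PML at 235508_at the share was 51.0%, near the median over all genes.

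**Figure D4:**
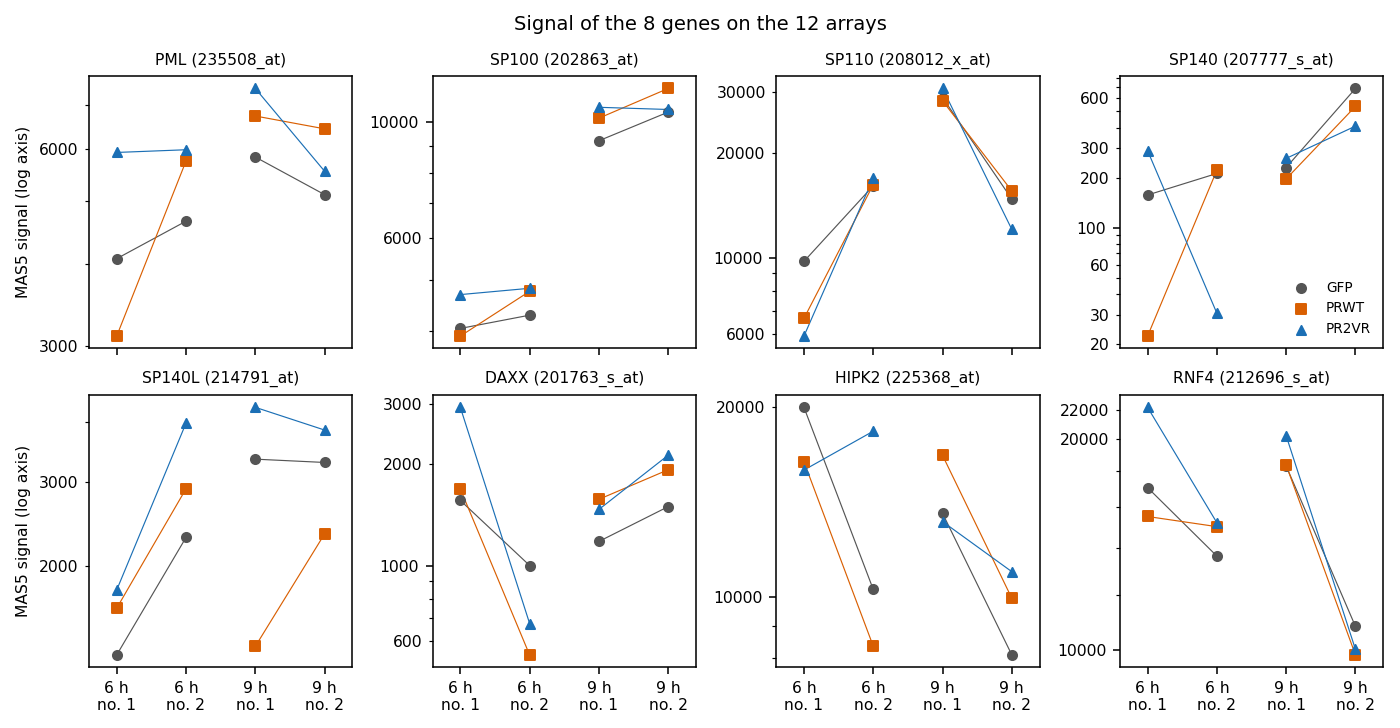
MAS5 signal (log axis, its own range in each panel) of the 8 genes on the 12 arrays, by hour and replicate number; lines join the arrays of 1 construct at 1 hour. SP100 lies at 3913.8 to 4824 at 6 h and 9197.9 to 11561.6 at 9 h, and SP110 changes its order between the sets at the 2 hours.

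The genes most like SP110 over the 12 arrays were PARP12 (Pearson r = 0.94), NOL7 (0.91), IFI16 (0.90), PIK3R3 (0.90) and EBAG9 (0.90). After the mean of each set was taken out, r was 0.63, 0.84, 0.71, 0.52 and 0.61 for these 5. Most like SP100 were CITED2 (0.93), IGFLR1 (0.92), TMEM69 (0.92), CLUAP1 (0.92) and SLFN12 (0.92), whose r within sets fell to 0.12 to 0.66. Most like PML at 235508_at were FOXD1 (0.94), LRRC47 (0.83), NQO1 (0.82), PPRC1 (0.82) and DENND1C (0.82), with r of 0.68 to 0.95 within sets. PML and SP100 correlated at 0.64 over all arrays and at 0.94 within sets. These are descriptions over 12 arrays that share hours, sets and processing.

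Of 30 further genes of the bodies and their partners, 26 were tested, and none was called between fusions and GFP (median 0.03). ISG20, an exonuclease of the bodies induced by interferon, differed by -1.20 ± 0.39 (limma adjusted p = 1.00), and with the set as a replicate block it fell (adjusted p = 0.0398). In PR2VR alone ISG20 differed by -1.44 ± 0.45, and with the replicate block it fell there too (limma adjusted p = 0.0402, beside 0.294% of genes called). TOPORS, a SUMO and ubiquitin ligase, differed by 0.68 ± 0.34 and SIRT1, a deacetylase, by 0.49 ± 0.28. By hour none of the 26 was called, with HIPK3, a kinase related to HIPK2, at -1.41 ± 0.32 and CABIN1, of the HIRA chaperone complex, at 0.90 ± 0.31.

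Of 18 genes of the SUMO pathway, 13 were measured and tested, and none was called in either comparison. The median difference between fusions and GFP was 0.09, with RNF111, which like RNF4 is a SUMO-targeted ubiquitin ligase, at 0.29 ± 0.26, PIAS2 at 0.39 ± 0.38 and SUMO3 at -0.24 ± 0.25. By hour the median was -0.13, with RANBP2, a SUMO ligase of the nuclear pore, at 0.57 ± 0.26.

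Of the interferon response genes, 30 were tested beside the SP family. None was called between fusions and GFP, 3 of 30 lay above 0 and the median was -0.41, against -0.02 over all genes. IRF1, an interferon-induced transcription factor, differed by -1.07 ± 0.38, XAF1 by -0.91 ± 0.34 and OAS1, an antiviral synthetase, by -0.71 ± 0.33. By hour the median was 0.44, 23 of 30 lay above 0, and IFI27 rose by 2.43 ± 0.34 (limma adjusted p = 0.0297; 0.410 with the set as a random replicate block), followed without a call by XAF1 at 1.79 ± 0.32. IFI27 was the 1 of 30 called, beside 0.0788% of genes, and 60.6% of all genes lay above 0.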

How the data were processed

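Total RNA of the 12 samples was measured on Affymetrix HG-U133 Plus 2 arrays. The authors deposited MAS5 signal intensities, per the submitters' processing notes; from the values, each array was scaled to 1 trimmed mean. Software versions and the genome build are not given in the sources used here. Probe sets were named from the platform annotation: of 54613 non-control probe sets, 41091 have 1 gene symbol, 1801 several and 11721 none. Depth does not apply to arrays.

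Values were log2(signal + 62.5), the offset being the 20th percentile of all signals. A gene was tested where its mean exceeded the 40th percentile (signal 168.9). One limma 3.58.1 fit (R 4.3.3) with a mean per group and a variance trend gave all comparisons, and it was tested on simulated data. The simulated arrays varied independently, with no deviation shared within a set. That test therefore cannot show how the fit performs on arrays that share sets, as these do. Same-numbered arrays of an hour deviated together (r = 0.15 to 0.36 at 6 h and 0.56 to 0.63 at 9 h). The main fit has no term for this, and the SEs and intervals given come from it. As an alternative, the numbers, taken from the titles, were treated as pairing the samples. There the set was added as a replicate block, random (duplicateCorrelation) for hours. No 2 arrays shared more than 0.0677% of their values.

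Named were every member, every PML probe set, RARA, up to 3 genes per further list by smallest p, all that passed, and the 5 genes most like PML, SP100 and SP110. The members and lists were chosen with earlier results of these data known. Alternatives were the offset, the filter, quantile normalization, the mean of probe sets, no variance trend, the block, and arrays left out.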

Additional observations from a re-analysis of the deposited data

Results flagged for a closer look

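A signal appeared outside the main measurement. The control probe set for the lys transcript of Bacillus subtilis, an RNA that can be added during labelling, had a median of 118595.8 on the 3 arrays of 9 h number 2, with a range of 86050.7 to 121536.3. On the other arrays it lay between 29.3 and 297.9. These are the arrays with the low GAPDH 3'/5' ratio, and 9 h number 2 is 1 of the 2 sets behind every 9 h value of SP100, SP110 and PML. The part of this difference in the members' values was not tested.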

How the results depend on the processing

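Calls of the members rest on few arrays. Of the 8 genes, those called at 9 h against 6 h (SP100) fell to 0 under quantile normalization, the mean of probe sets, no variance trend, the replicate block and without the 9 h number 2 set, and 0 to 1 on leaving out single arrays. The PML probe sets called in the fusions fell to 0 with no variance trend and without that set (0 to 1 on leaving out arrays). Those called in PRWT fell to 0 with the 40th percentile offset, the filter, quantile normalization, no variance trend and without that set (0 to 1), and those in PR2VR rose to 1 with the replicate block (0 to 1). The replicate block also brought the call of 210362_x_at in the fusions at 9 h (limma adjusted p = 0.0293), and changed no other call of the 8 genes or of a PML probe set.

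Reversed values were all uncalled. Under quantile normalization 211012_s_at (fusions) and 239582_at (hour) became -0.018 and -0.021. With the mean of probe sets, SP100 became -0.14 and HIPK2 -0.00041 (fusions), SP110 0.034 and HIPK2 -0.0012 (PR2VR against PRWT), and HIPK2 0.23 (hour). Without 9 h number 2, SP110 became 0.033 and 209640_at 0.020 (PR2VR against PRWT), 211013_x_at -0.054 (fusions), and HIPK2 0.022, RNF4 0.22, 211588_s_at 0.026 and 211589_at 0.44 (hour). The cause was not tested.

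On leaving out single arrays, fusions against GFP ranged from -0.10 to 0.40 for DAXX, -0.12 to 0.35 for HIPK2, -0.13 to 0.25 for RNF4, -0.41 to 0.077 for SP110, -0.11 to 0.28 for SP140L, -0.11 to 0.29 for 206503_x_at, -0.070 to 0.079 for 211012_s_at, -0.083 to 0.29 for 211013_x_at and -0.048 to 1.10 for 211588_s_at. PR2VR against PRWT ranged from -0.23 to 0.78 for DAXX, -0.023 to 0.46 for HIPK2, -0.077 to 0.43 for RNF4, -0.016 to 0.12 for SP100, -0.46 to 0.29 for SP110, -0.38 to 0.59 for SP140, -1.0 to 0.12 for 210362_x_at, -0.17 to 0.093 for 211012_s_at, -0.71 to 0.044 for 211013_x_at and -0.28 to 1.00 for 211588_s_at. By hour 211589_at ranged from -0.76 to 0.13. A group left with 1 array is assumed to vary like the others. Signals near those of the bacterial and phage controls limit SP140, 211588_s_at and 211589_at.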
